A study of Drosophila melanogaster with 12 samples.

Results

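A set of 164 array features, each summarizing the probes of a Drosophila transcript, was recovered at least 2-fold more with the RNA-binding protein Pumilio (PUM) than with a control antibody, while its mean recovery with Brain tumor (BRAT) stayed within 1.5-fold of the control. Members were chosen by 3 conditions on log2 ratios, where a ratio is the signal of a RIP minus that of the control RIP of the same replicate number. The mean PUM ratio had to be at least 1, all 3 PUM ratios had to be above 0, and the mean BRAT ratio had to lie strictly between -0.585 and 0.585. The 164 members were 2.28% of the 7186 features with values and 56.6% of the 290 features that met both PUM conditions, which are called PUM-bound below. Because both kinds of ratio chose the members, all values of members in these comparisons are descriptions and carry no test.

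In a RIP-Chip experiment, a protein is immunoprecipitated from an extract together with its attached RNA, and that RNA is measured on a microarray. The groups were PUM RIP, BRAT RIP and control RIP, with 3 biological replicates each, all from embryos of the w1118 strain at 0 to 3 h after egg-laying, with no mutant or drug in any group. Each RIP used a synthetic antibody made as an antigen-binding fragment, or Fab, and the paper calls the negative control antibody C1. The same 3 control preparations served both RIPs and appear a second time in the table, because the PUM and BRAT sets were normalized separately. A difference in a control preparation therefore enters the PUM ratio and the BRAT ratio of that number alike. In every group, replicates 1 and 2 were labelled with Cy3 and replicate 3 with Cy5, so replicate 3 and its dye cannot be told apart. Whole embryos were extracted, so recovery from few cells with much of a transcript and from many cells with little of it cannot be told apart.

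PUM is a founding member of the PUF family of RNA-binding proteins, which recognize short elements with a UGUA core, mostly in 3′ untranslated regions, and repress translation or promote removal of the poly(A) tail. BRAT belongs to the TRIM-NHL family and contacts RNA through its NHL domain. In the early embryo both act with Nanos on the maternal hunchback mRNA, whose repression in the posterior is needed for the abdomen to form, and both act in the period when control of development passes to the genome of the embryo. The table gives features by FlyBase transcript identifier without gene names, and 0 of the 164 member identifiers were matched in the gene table used here, so members are given by identifier and no gene function is assigned to them.

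Pearson correlations between replicate columns over all features were 0.926 to 0.955 in the PUM RIP, 0.941 to 0.968 in the BRAT RIP and 0.929 to 0.961 in the control RIP of the PUM set. Between RIP and control columns they were 0.868 to 0.944 in the PUM set and 0.79 to 0.888 in the BRAT set. Column medians were 11.83 to 11.86 in the PUM set and 11.59 to 11.65 in the BRAT set on the log2 scale. The median ratio over all features was 0.01 for PUM and -0.15 for BRAT, so a BRAT ratio of 0 lay slightly above the middle of the table.

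The conditions narrowed the table in steps. A mean PUM ratio of at least 1 was found for 295 features, of which 5 had at least 1 PUM ratio at or below 0. Of these 5, only FBtr0080854 had a mean BRAT ratio inside the window. Its PUM ratios were 1.57, 1.97 and -0.04 in replicates 1, 2 and 3. The remaining 290 PUM-bound features were 4.04% of the table, and they divided into the 164 members, 105 features with a BRAT ratio above the window and 21 below it. Over all features, 58.4% had a mean BRAT ratio inside the window.

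**Figure D1:**
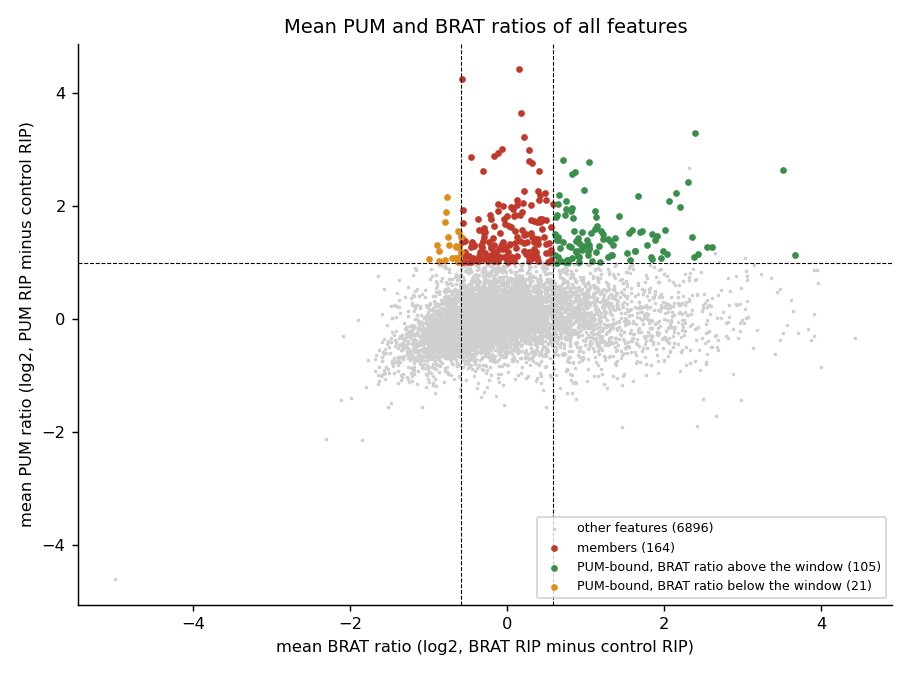
Mean PUM ratio (vertical axis, log2) against mean BRAT ratio (horizontal axis, log2) for all 7186 features, each point a feature and the mean of 3 replicates, with dashed lines at the limits of the rule. The 164 members fill the middle of the upper part of the plot, between 105 PUM-bound features to the right and 21 to the left.

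Among the members, the mean PUM ratio had a median of 1.36 (2.56-fold), with quartiles of 1.16 and 1.76 and a range of 1.01 to 4.42. Most members lay close to the limit. A mean PUM ratio under 1.5 was found in 101 of 164, a ratio of 1.5 to 2 in 37, and a ratio of at least 2 (4-fold) in 26, of which 6 reached 8-fold. Members made up 9 of the 10 features with the highest mean PUM ratio, 13 of the top 20 and 29 of the top 50, beside their share of 56.6% of PUM-bound features. The rule used this ratio, and nothing is read from these counts.

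The highest PUM ratio of any feature was that of FBtr0081990. Its signals were 14.68, 14.35 and 14.61 in the PUM RIP, against 10.70, 9.60 and 10.08 in the control RIP (log2, replicates 1 to 3), a mean ratio of 4.42 ± 0.39 (SD, n = 3) or 21.5-fold. Every PUM RIP value stood far above every control value. In the BRAT set the same feature had 9.97, 9.35 and 9.31 in the BRAT RIP and BRAT ratios of 0.27, 0.55 and -0.37, and these values overlapped with those of the control RIP.

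FBtr0085906 followed with a mean PUM ratio of 4.26 ± 0.33 (19.1-fold), from signals of 12.84, 13.73 and 14.10 in the PUM RIP, against 8.83, 9.61 and 9.47 in the control RIP. It was also the member with the lowest BRAT ratio. Its BRAT ratios were -0.18, -1.34 and -0.23, so its mean of -0.58 rested largely on replicate 2. FBtr0070138 came next, with 14.28, 14.29 and 14.09 in the PUM RIP, against 11.19, 10.66 and 9.83 in the control RIP, a mean ratio of 3.66 ± 0.59. Its PUM RIP values were nearly level, and the spread of its ratios followed the control values.

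The other 3 members at 8-fold or more were FBtr0076111, FBtr0077517 and FBtr0074592, with mean PUM ratios of 3.23 ± 0.35, 3.01 ± 0.46 and 3.00 ± 0.41. Their mean BRAT ratios were 0.21, -0.07 and 0.27. For FBtr0074592 the BRAT ratios were -0.29, 0.10 and 1.00, so its BRAT value near 0 was the mean of replicates that went apart. In the control RIP of the BRAT set it had 10.13, 10.28 and 8.73, the lowest value being that of replicate 3.

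The next 6 members by PUM ratio were FBtr0083764 (2.94), FBtr0073456 (2.89), FBtr0074454 (2.88), FBtr0075604 (2.81), FBtr0088033 (2.76) and FBtr0073776 (2.63). FBtr0073456 was the steadiest of these, with PUM ratios of 2.85, 2.85 and 2.98. FBtr0088033 was the least steady of all members, with ratios of 4.13, 3.60 and 0.56. Its PUM RIP signals were 12.49, 10.51 and 9.14, against 8.36, 6.92 and 8.58 in the control RIP, and all 3 lay above all 3 control values although replicate 3 did so by little. FBtr0073776 had the strongest control signal of the 12, with 14.84, 14.90 and 14.62 in the PUM RIP, against 12.56, 12.22 and 11.69 in the control RIP.

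**Figure D2:**
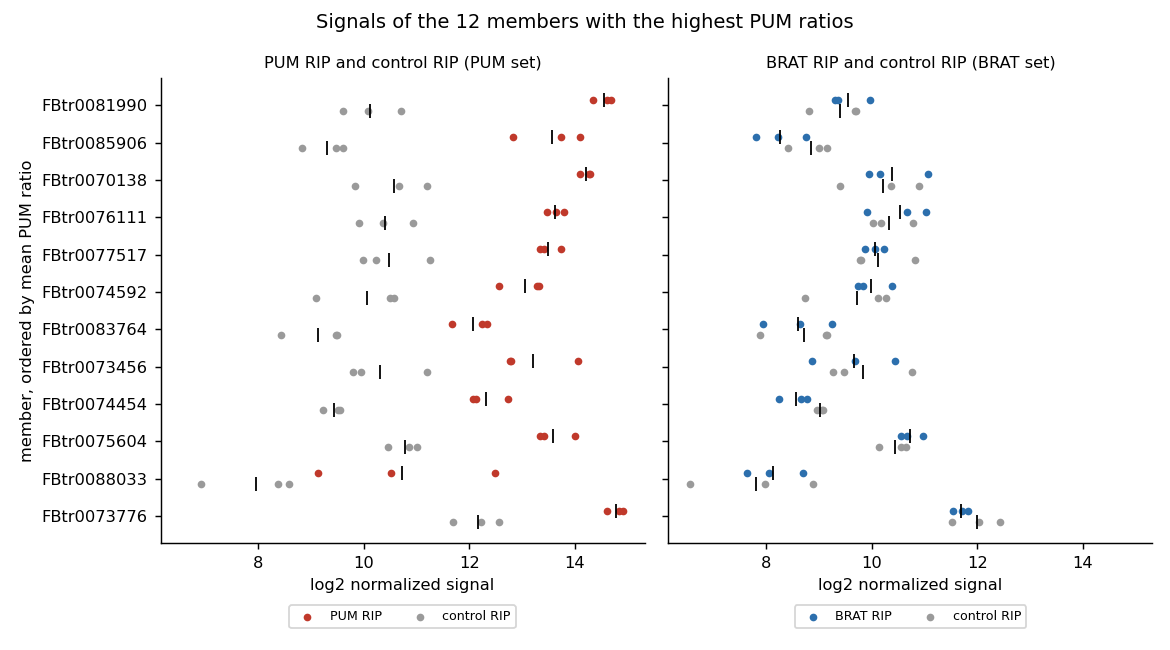
Log2 normalized signals of the 12 members with the highest mean PUM ratio, as points for each of 3 replicates with a black bar at the mean. In the left panel every PUM RIP value lies above the control RIP values of its feature, and in the right panel BRAT RIP and control RIP values lie close together or overlap.

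A mean BRAT ratio inside the window did not mean that each replicate was inside it. The mean BRAT ratio of the members had a median of 0.02, with quartiles of -0.22 and 0.30, and was above 0 in 85 of 164. It lay within 0.2 of 0 in 59. All 3 BRAT ratios were inside the window for 68 members, at least 1 was outside it for 96, and 23 members had a replicate with a 2-fold or larger difference in either direction. A BRAT signal near the control on average follows from the rule, and 96 of the 164 members were not inside the window in every replicate. These counts are given for members only, so they show no trait of the members. The SD of the 3 BRAT ratios had a median of 0.36 in members, against 0.28 over all features. It was 0.39 in the PUM-bound features above the window and 0.27 in those below it.

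The direction of the BRAT ratio was mixed in most members. The 3 BRAT ratios had different signs in 102 of 164 (62.2%, against 30.7% of all features), were all above 0 in 34 (20.7%, against 28.3% of all features) and were all below 0 in 28 (17.1%, against 41.0%). The window itself favours mixed signs, so nothing is read from these shares. All 3 BRAT RIP values lay above all 3 control values in 11 members (6.71%, against 19.8% of all features) and below them in another 11 (6.71%, against 25.9%). The window leaves out features with large mean BRAT ratios, so nothing is read from these shares either.

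The replicates did not contribute evenly to the ratios of the members. The rule used these ratios, so nothing is read from the medians and shares that follow. Median BRAT ratios of the members were -0.07, -0.08 and 0.16 in replicates 1, 2 and 3, against -0.17, -0.09 and -0.12 over all features. The BRAT ratio was highest in replicate 3 for 93 members (56.7%), compared with 34.7% of all features. A BRAT ratio of 1 or more was found in 11 members in replicate 3, 1 in replicate 1 and 4 in replicate 2. These 3 counts are given for members only, and nothing is read from them. Replicate 3 was also the one labelled with Cy5, and the part of the dye was not tested. The PUM ratio was highest in replicate 1 for 45.1% of members, in replicate 2 for 16.5% and in replicate 3 for 38.4%, while the shares over all features were 34.2%, 32.1% and 33.8%.

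**Figure D3:**
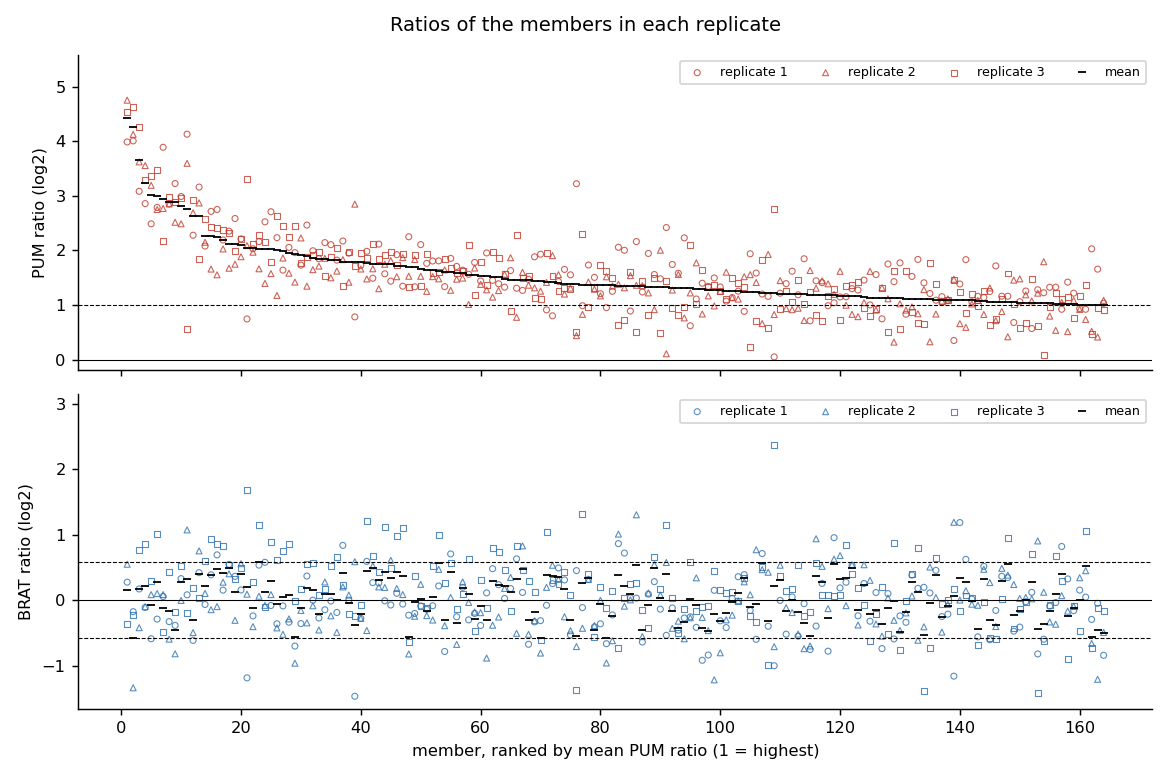
PUM ratios (upper panel) and BRAT ratios (lower panel) of the 164 members in each of 3 replicates (log2), with a short bar at the mean and members ranked by mean PUM ratio. Dashed lines mark the limits of the rule, and 96 members have at least 1 BRAT ratio outside them.

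Some features lay close to the edges of the BRAT window on either side. The members with the lowest BRAT ratios, FBtr0085906, FBtr0074671 and FBtr0089420, all had a mean of -0.58, and the PUM-bound features just below the window, FBtr0077112, FBtr0074768 and FBtr0070283, had -0.59, -0.59 and -0.61. At the upper edge, FBtr0089902, FBtr0086512 and FBtr0086829 were members at 0.58, 0.56 and 0.56, and FBtr0081557, FBtr0074314 and FBtr0076821 fell outside at 0.60, 0.61 and 0.62. FBtr0089902 shows how close such a feature came to recovery with both proteins. Its signals were 13.39, 12.90 and 12.60 in the PUM RIP, against 11.23, 11.24 and 10.32 in the control RIP, and 11.53, 11.06 and 11.19 in the BRAT RIP, against 11.00, 11.00 and 10.04 in the control RIP of that set. All 3 values were above all 3 control values in both sets, by more than 1 log2 unit in the PUM set and by little in the BRAT set.

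Some features also lay close to the PUM limit on either side. Just inside it, FBtr0074056, FBtr0078328 and FBtr0074661 each had a mean PUM ratio of 1.01, and just outside it FBtr0084034, FBtr0086838 and FBtr0076474 had 0.999, 0.999 and 0.997. FBtr0074056 was one of 2 members with a mean control signal of 14 or more, with 15.63, 15.48 and 15.22 in the PUM RIP, against 14.60, 14.39 and 14.31 in the control RIP. FBtr0074661 reached the limit mainly through replicate 1, with PUM ratios of 2.03, 0.52 and 0.48.

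Agreement between replicates varied widely. All 3 PUM ratios were at least 1 in 82 members, exactly 2 were in 67, and 15 had only 1 ratio at or above 1. The difference between the highest and the lowest PUM ratio of a member had a median of 0.68, against 0.55 over all features, and exceeded 1 in 44 members and 2 in 6. It was under 0.5 in 43 members. The steadiest was FBtr0073801, with PUM ratios of 1.08, 1.11 and 1.10 and BRAT ratios of -0.22, -0.07 and 0.01.

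FBtr0083765 and FBtr0078123 were the least steady after FBtr0088033. FBtr0083765 had PUM RIP signals of 10.33, 8.61 and 8.57, against 7.11, 8.17 and 8.07 in the control RIP, so its ratio of 3.22 in replicate 1 combined the highest PUM RIP value with the lowest control value. FBtr0078123 had 8.83, 8.25 and 7.55 in the PUM RIP, against 8.78, 7.42 and 4.78 in the control RIP, and its groups overlapped. Its PUM ratios were 0.05, 0.83 and 2.76, and its BRAT ratio was 2.36 in replicate 3 and below 0 in both others. The control value of replicate 3 stood apart in both sets, at 4.78 in the PUM set and 4.92 in the BRAT set. The SD of the control values was above 1 in 6 members, and it exceeded that of the PUM RIP values in 89 members (54.3%), compared with 46.8% of all features.

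In all, 152 of 164 members (92.7%) had all 3 PUM RIP values above all 3 control values, a pattern found in 12.5% of all features. In the paired limma fit over all features, with a call at an adjusted p under 0.05 and at least 1.5-fold, 159 members (97.0%) were called higher in the PUM RIP, where 6.96% of all features were, and 0 lower, where 3.58% were. Without replicate 1 the same fit called 60 of the 164 (36.6%) and 1.38% of all features. The difference of the ratios, PUM minus BRAT, was called higher in 159 members (97.0%), compared with 22.2% of all features, and lower in 0, compared with 17.2%, and 155 members were called in both. The rule used these contrasts, so nothing is read from the counts. The 5 members not called in the PUM RIP were FBtr0083765, FBtr0290247, FBtr0078123, FBtr0084121 and FBtr0074661.

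In the limma fit of BRAT RIP against control RIP, 0 members were called, because the window ends at the fold limit of a call, while over all features 19.1% were called higher and 21.1% lower. At an unadjusted p under 0.05 there were 28 members, 13 with a higher signal in the BRAT RIP (7.93%, against 23.8% of all features) and 15 with a lower one (9.15%, against 31.5%). An adjusted p under 0.05 was found in 14 members (8.54%), all at less than 1.5-fold, and in 47.3% of all features at any fold. Centering each ratio column on its median raised the median BRAT ratio of all features by 0.13, and the called features that were higher then rose to 60.7% of BRAT calls, compared with 47.5% as deposited. For PUM minus BRAT the share of calls that were higher was 42.1% after centering and 56.3% as deposited. Leaving out a replicate number brought members into the BRAT calls of either direction, 15 without replicate 1 (9.15%, against 39.2% of all features), 7 without replicate 2 (4.27%, against 35.8%) and 9 without replicate 3 (5.49%, against 37.6%). After centering, 11 of the members (6.71%) were called higher in the BRAT RIP, beside 22.3% of all features, and 152 (92.7%) were called higher for PUM minus BRAT, beside 15.0%. Here too the rule used the values, and nothing is read from the counts.

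Signals of the members were lower than those of the table in the control RIP. The median was 12.55 in the PUM RIP, against 10.86 in the control RIP of the same set, where all features had 11.86 and 11.84. In the BRAT set the members had a median of 10.68 with BRAT and 10.65 with the control Fab, where all features had 11.58 and 11.64. The median member thus lay below the median feature in the control RIP and the BRAT RIP and above it in the PUM RIP. The control values are part of the ratios that chose the members, so this placement is no independent finding.

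In the control RIP, 74 members (45.1%) lay below the lower quartile of all features and 15 (9.15%) above the upper quartile. In the PUM RIP 33 (20.1%) lay below the lower quartile of that group and 70 (42.7%) above the upper one. Across the 4 parts that the quartiles of control signal make, from dim to bright, the median PUM ratio of members was 1.32, 1.43, 1.54 and 1.37, with 15, 6, 5 and 0 members of 4-fold or more. The spread between replicates was widest among the dim ones, where the range of the 3 PUM ratios had a median of 0.87, and it was 0.61, 0.53 and 0.59 in the others. The 5 members not called in the PUM RIP all lay below the lower quartile, where 69 of 74 were called, beside 11.3% of all features there.

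**Figure D4:**
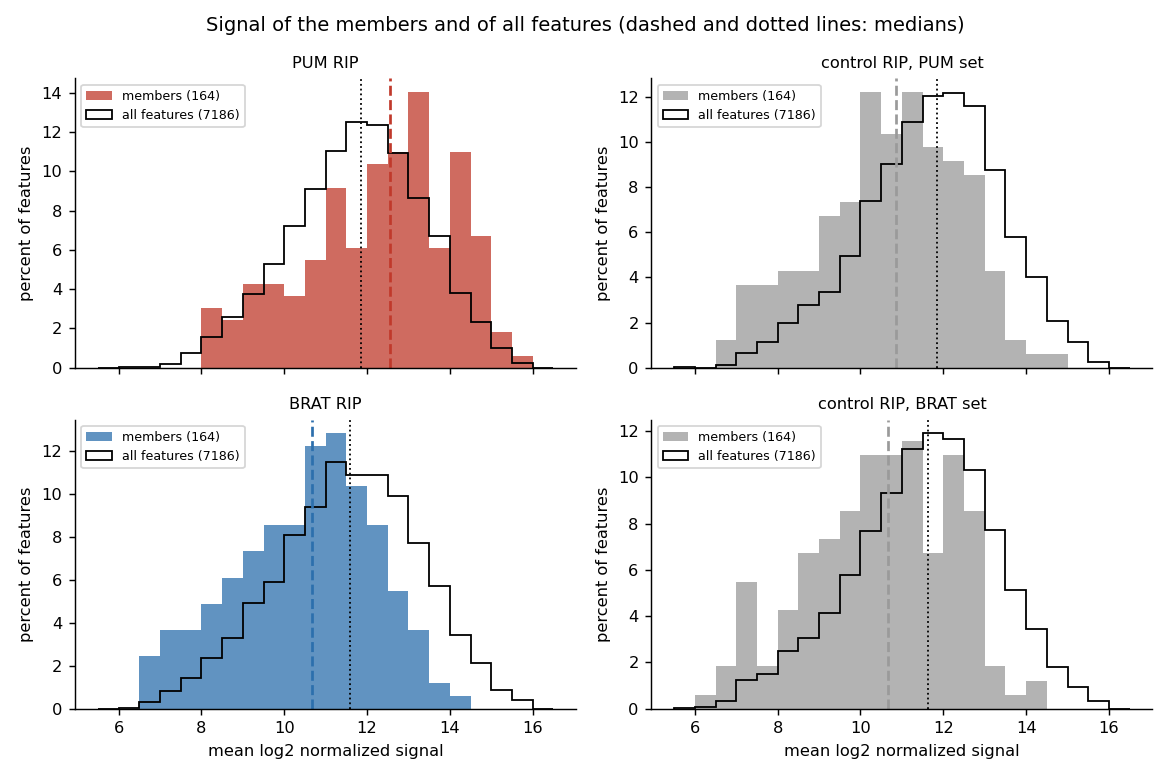
Distribution of the mean log2 normalized signal of members (filled) and of all 7186 features (black outline) in PUM RIP, BRAT RIP and the control RIP of each set, as percent of features per bin of 0.5. Dashed lines are medians of members and dotted lines medians of all features. The members lie to the right of all features in the PUM RIP and to the left in the other 3 groups.

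BRAT ratios were also set out along the scale of PUM ratios, with no test. Members with a PUM ratio of 1 to 1.25 (61), 1.25 to 1.5 (40), 1.5 to 2 (37) and at least 2 (26) had median BRAT ratios of -0.05, -0.04, 0.08 and 0.20. The lowest BRAT ratio of a bin was between -0.58 and -0.56 and the highest between 0.53 and 0.58, so each bin filled the window. The median control signal in these bins was 10.5, 10.5, 11.5 and 10.5. Both ratios subtract the same control preparations, so a low control value raises both at once. The part of this in the BRAT medians was not tested, and a median control signal cannot show it.

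The PUM-bound features outside the window had similar PUM ratios and other control signals. The median PUM ratio was 1.36 in members, 1.39 in the 105 features above the BRAT window and 1.28 in the 21 below it, and the highest was 4.42, 3.30 and 2.17. The median control signal was 10.86 in members, 10.21 above the window and 11.60 below it, and 45.1% of members, 61 of 105 and 5 of 21 lay below the lower quartile of control signal. All 3 classes were cut from ratios that share the control preparations, so differences between them were not tested.

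The members included features with neighbouring identifiers. There were 20 members whose identifier number was next to that of another member, in 9 groups of at most 3, among them FBtr0083764 and FBtr0083765, and no 2 members had identical values. Whether neighbouring identifiers are transcripts of one gene, or share probes, was not looked up. Members are features and not replicates, and all counts above are counts of features.

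Membership itself depended on the values near the limits. Across 6 alternative ways of computing the ratios (leaving out each replicate number, centering, and another normalization of 2 kinds), 77 members (47.0%) met the rule every time. Of the 61 members with PUM ratios of 1 to 1.25, 10 did so, and of the 26 with ratios of at least 2, 19 did. Of the 12 members with the highest ratios, FBtr0085906 met the rule under 2 of the 6 and FBtr0074454 under 5, and the other 10 under all 6.

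**Figure D5:**
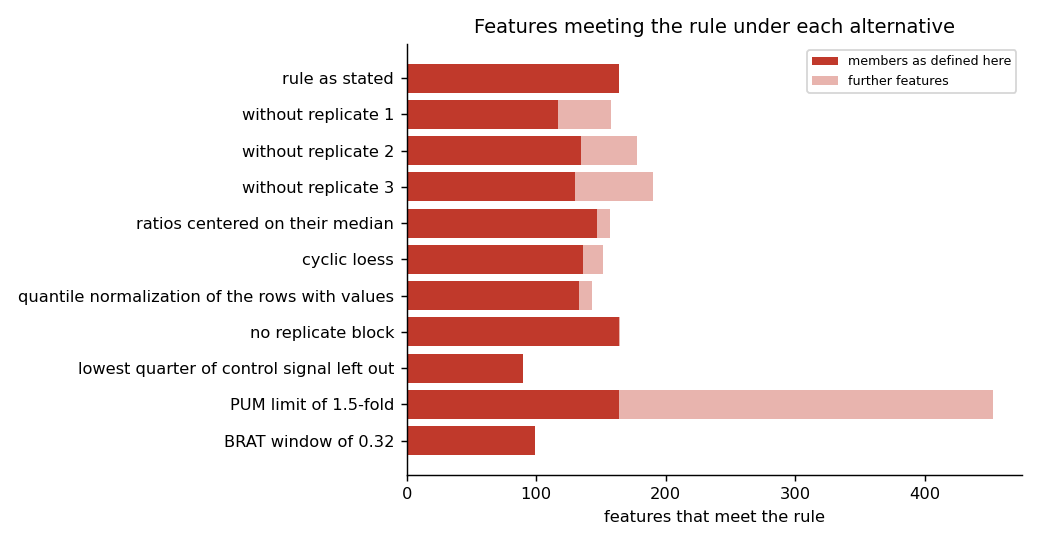
Number of features that met the rule as stated and under each alternative (bars, horizontal axis). The dark part counts the 164 members that met it again, and the light part features that met it only under that alternative, with the widest change when the PUM limit was lowered to 1.5-fold.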

How the data were processed

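RNA from 9 RIPs of 0 to 3 h embryos was hybridized to custom NimbleGen arrays. The authors quantified images with NimbleScan and deposited log2 values per transcript, made in ArrayStar by RMA with quantile normalization, for the BRAT set and the PUM set apart. The log2 scale was taken from the range of the values. Quantile normalization forces equal distributions, so ratios are relative to the bulk of features, and a RIP that recovered more RNA overall would not show it. Of 17130 rows, 9944 held no value and 7186 were used. Which samples shared an array, and background of single probes, were not analysed here.

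Ratios were formed within a set and replicate number. Fits were made in limma 3.58.1 (R 4.3.3), with lmFit and eBayes and the replicate number as a block, since the study's own test was paired. Tests were two-sided with Benjamini-Hochberg adjustment over 7186 features. Replicate numbers come from the labels. Deviations from the group means correlated between RIP and control of the same number at 0.505, 0.322 and 0.356 in the PUM set and 0.532, 0.297 and 0.457 in the BRAT set, all above 0.1, and the pairing was kept. Replicate 3 alone carried Cy5 in every group, so a shared dye may enter these correlations. They cannot show by themselves that samples of the same number belong together. Fits were tested on simulated data. Python 3.11.15 and matplotlib 3.10.9 drew the figures.

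The members, lists and tests were chosen with earlier results of these data known. Features named in the text are the 12 members with the highest PUM ratio, the 3 at each edge of the BRAT window and just inside and outside the PUM limit, and the 3 with the widest range of PUM ratios. Of the 3 with the narrowest range, which were also chosen, only the steadiest is named. Features just outside the window, the one with a discordant sign and those without a call were added after their values were seen. Of the 7186 identifiers, 37 were found in the gene table, and 0 of the members, so planned gene lists, known target mRNAs, other transcripts of a gene, tissue markers and sequence features could not be applied.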

Additional observations from a re-analysis of the deposited data

How the results depend on the processing

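For the members chosen by the rule for named features, no mean PUM ratio moved by more than the SD between its replicates under centering or loess. Centering shifted every mean PUM ratio by -0.0093, and the smallest SD of a member was 0.014, so centering could not fail this check. Leaving out a replicate number could not change the sign of a mean PUM ratio, as the rule requires 3 ratios above 0. The number of members was 158 to 190 when a replicate number was left out, of which 117 to 135 were among the 164, and 143 to 157 under centering, cyclic loess and quantile normalization of the rows with values. It was 90 with features below the lower quartile of control signal left out, 453 with a PUM limit of 1.5-fold and 99 with a BRAT window of 0.32, each of which follows from the construction of the alternative.

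With no replicate block, 165 features met the rule, 164 of them members. The mean ratios are the same with and without pairing, and only the condition on 3 ratios could change. In the calls over all features with no replicate block, 197 features were called higher and 66 lower in the PUM RIP, compared with 500 and 257 with it. Members were 105 of the 197 features called higher without the block and 159 of the 500 with it. The rule used the PUM ratios, so nothing is read from these counts of members. In the BRAT RIP 931 were called lower without the block (1519 with it), and 1044 were called higher for PUM minus BRAT (1593 with it). The paired samples come from the numbers in the labels.

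Leaving out a replicate number gave 99 to 429 features called higher and 13 to 151 lower in the PUM RIP, the lowest of both without replicate 1. Members were then 60 of the 99 features called higher without replicate 1, 153 of 360 without replicate 2 and 149 of 429 without replicate 3. The rule used the PUM ratios, so nothing is read from the counts of members. The cause of the lower counts without replicate 1 was not tested. At a fold limit of 2, calls were 282 higher and 77 lower for PUM, 796 higher and 379 lower for BRAT, and 514 higher and 762 lower for PUM minus BRAT. Features called lower in the PUM RIP were 408 with a trended and robust prior and 400 without features below the lower quartile of control signal. With 3 replicates a group, precision was lowest for the dim features, where PUM ratios of members and of all features had their widest range.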
